A study of Caenorhabditis elegans with 2 samples.

Results

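The sites described here are the autosomal places where a ranked ZTF-28 peak met the start of a transfer RNA (tRNA) gene. The zinc finger factor ZTF-28 was followed by ChIP-seq in 2 biological replicates that form a single group. The worms were strain RW12281, in which allele st12281 joins TY1, EGFP and 3xFLAG to ztf-28 at its own place on chromosome V by CRISPR insertion. Whole young adults were taken at 63 hours, after bleaching and starvation as L1 larvae had brought them into step, and sonicated chromatin was precipitated through GFP. All tissues of the animal are mixed in each library, and no untagged or input library was analysed here, so nothing could be compared between conditions.

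A peak of the ranked list counted as a tRNA site when its summit lay from 500 bp upstream to 200 bp downstream of a tRNA gene start on chromosomes I to V, read along the gene's strand. This took 353 of 103094 ranked peaks, next to 249 on the X chromosome. Every one of the 353 was 300 bp wide. The conservative list of the authors keeps peaks whose rank was shared by both replicates, measured as the irreproducible discovery rate (IDR), and held 101 of the 353 sites (28.6%, 95% Wilson interval 24.2 to 33.5), against 1.05% of all ranked peaks. These 101 are called listed sites below. Wilson intervals cover counting error only, and sites of the same libraries are not replicates of one another. The signal is the authors' value; its scale is not stated, and the read depth behind it is unknown.

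tRNA genes are transcribed by RNA polymerase III from a promoter inside the gene. The factor TFIIIC binds 2 short internal elements, the A box and the B box, and recruits TFIIIB upstream of the start; transcription ends at a run of T residues just past the gene. Many tRNA genes of Caenorhabditis elegans exist in identical copies and lie in introns of protein-coding genes, on either strand. The 336 autosomal genes had a median length of 72 bp (range 68 to 122). The B box word GTTCNANNC was searched here on the tRNA strand of a gene body and on both strands of a peak. It stood in the body of 319 of the 336 genes (94.9%), counted wherever in the body it began. In the tryptophan genes it began at base 25, against base 52 in F44A2.t1.

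The gene bodies below are printed 5′ to 3′ on the tRNA strand with 40 bases to each side, from the RefSeq sequence of WBcel235 (ce11), with the B box word and the first TTTT past the gene in capitals. The first 3 are the strongest listed sites whose gene body is found in no other tRNA gene. They are the alanine gene F44A2.t1 (chrV:9318162-9318313, plus strand), the glycine gene F10C1.t1 (chrII:5782172-5782322, minus strand) and the isoleucine gene F57F5.t1 (chrV:12002136-12002300, plus strand).
F44A2.t1: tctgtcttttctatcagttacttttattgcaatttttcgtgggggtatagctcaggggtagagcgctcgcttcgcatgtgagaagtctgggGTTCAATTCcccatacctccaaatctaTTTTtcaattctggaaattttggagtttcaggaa
F10C1.t1: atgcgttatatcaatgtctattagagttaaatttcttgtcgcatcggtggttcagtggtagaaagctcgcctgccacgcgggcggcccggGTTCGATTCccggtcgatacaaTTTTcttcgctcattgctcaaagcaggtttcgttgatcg
F57F5.t1: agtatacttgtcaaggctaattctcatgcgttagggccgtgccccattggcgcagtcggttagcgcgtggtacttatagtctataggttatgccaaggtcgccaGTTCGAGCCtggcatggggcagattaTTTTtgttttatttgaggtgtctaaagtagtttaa

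The next 4 show how far the signal differed between genes of the same sequence. T23F1.t2 (chrV:15465185-15465336, minus strand) and R11G10.t1 (chrV:13509653-13509804, plus strand) have the same 72 bases of a proline tRNA, with different flanks, and held signals of 126.4 and 10.8. The peak at T23F1.t2 also overlaps the neighbouring lysine gene T23F1.t1, so its signal is not that of the proline gene alone. C09B9.t1 (chrIV:5038880-5039032, plus strand) and ZK994.t2 (chrV:8499524-8499676, minus strand) have the same 73 bases of a lysine tRNA and held 122.7 and 56.9. Within each family they are the strongest and the weakest gene whose best summit lay from 50 bp upstream to 80 bp downstream of the start.
T23F1.t2: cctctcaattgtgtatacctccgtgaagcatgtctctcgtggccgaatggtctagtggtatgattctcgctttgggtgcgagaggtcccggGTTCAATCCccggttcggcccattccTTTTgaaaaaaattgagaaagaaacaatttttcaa
R11G10.t1: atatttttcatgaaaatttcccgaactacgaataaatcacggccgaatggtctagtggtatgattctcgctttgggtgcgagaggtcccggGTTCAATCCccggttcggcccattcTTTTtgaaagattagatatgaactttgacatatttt
C09B9.t1: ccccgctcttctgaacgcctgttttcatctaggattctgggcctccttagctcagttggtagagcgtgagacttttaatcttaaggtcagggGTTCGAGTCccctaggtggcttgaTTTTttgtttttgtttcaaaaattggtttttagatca
ZK994.t2: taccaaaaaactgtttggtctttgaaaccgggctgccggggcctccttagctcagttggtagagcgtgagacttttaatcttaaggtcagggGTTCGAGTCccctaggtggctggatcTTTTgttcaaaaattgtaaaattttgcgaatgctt

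The last 2 have a complete B box word and a T run and were not in the list. K11H12.t1 (chrIV:658141-658306, plus strand) is the selenocysteine gene of the set, and ZK1067.t1 (chrII:9211764-9211927, minus strand) had the highest signal of the tyrosine genes.
K11H12.t1: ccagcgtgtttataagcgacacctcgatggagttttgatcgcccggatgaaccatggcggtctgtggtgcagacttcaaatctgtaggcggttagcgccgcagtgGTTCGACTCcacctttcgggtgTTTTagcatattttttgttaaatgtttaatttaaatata
ZK1067.t1: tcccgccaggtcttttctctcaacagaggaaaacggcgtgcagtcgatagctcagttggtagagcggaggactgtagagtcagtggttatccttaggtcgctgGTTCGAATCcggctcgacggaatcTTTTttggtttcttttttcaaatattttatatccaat

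Signals at tRNA sites were higher than those of ranked peaks in general. The median pooled signal was 56.2 at the 353 sites, with quartiles of 28.6 and 80.3, against 23.9 over all ranked peaks, where the quartiles were 14.3 and 35.2. In the first replicate column the medians were 28.6 at the sites and 13.6 over all peaks, and in the second 32.1 and 14.3. The median site ranked 4741 of 103094. Once listed, the sites did not stand above other listed peaks: the median was 94.1 for the 101 sites and 94.8 for all 1086 listed peaks.

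The strongest site lay in the alanine gene F44A2.t1 on V, at 173.5 pooled and 69.1 and 98.7 in the replicate columns. It also had the lowest IDR of the 353 sites, 0.000244. The lysine gene K08E7.t1 on IV followed with 154.1 pooled and 63.3 and 83.2 in the replicate columns; it lies in an intron of pgp-1, a P-glycoprotein transporter gene, on the opposite strand. The glycine gene F10C1.t1 on II had 142.6, with 63.4 and 78.8. The threonine gene F52C9.t1 on III had 136.5, with 52.9 and 80.6, and was the strongest with a host intron on its own strand, in F52C9.5. In these 4 the second replicate value was the higher one.

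Between 130.4 and 121.1 came 8 more sites, which complete the 12 strongest. The isoleucine gene T21B4.t1 on II, in an intron of the collagen gene col-85, had replicate values of 63.1 and 68.5. The aspartate gene C35E7.t1 was the strongest on chromosome I, at 128.2 pooled and 70.3 and 55.1 in the replicate columns. The phenylalanine gene Y39B6A.t9 on V had 71.1 and 57.3, and the proline gene T23F1.t2, also on V, 62.0 and 62.5. On IV, the lysine gene C09B9.t1 had 62.0 and 61.4. The aspartate gene Y105C5B.t1 had 67.1 and 59.1, in an intron of srv-16, of a chemoreceptor family. The threonine gene T04D3.t4 on I had 68.2 and 61.2. The histidine gene Y65A5A.t4 on IV stood apart from these by its replicates: 37.1 and 80.5, a ratio of 2.17.

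**Figure D1:**
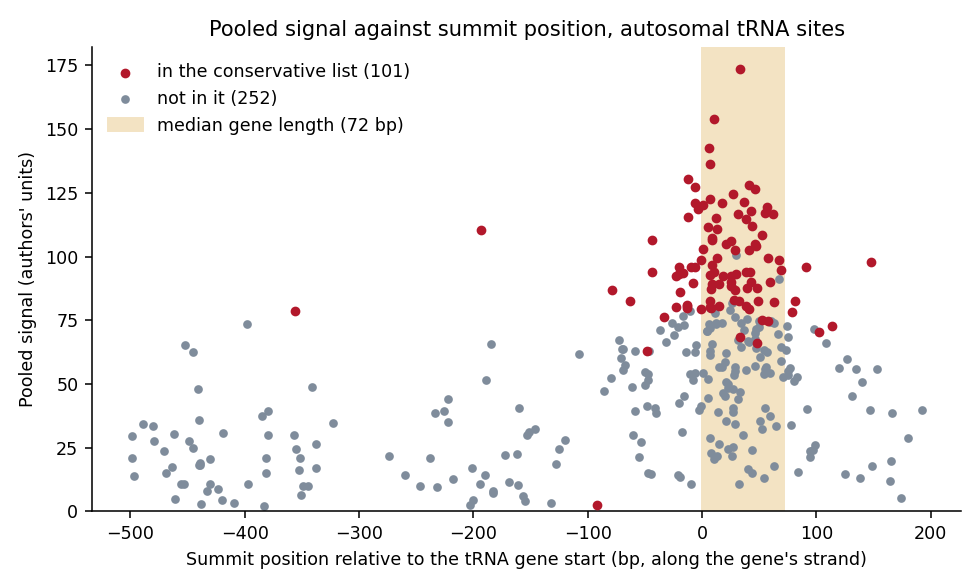
Each point is 1 of the 353 autosomal tRNA sites, at its summit position along the strand of the nearest tRNA gene (bp from the start) and its pooled signal. The 101 listed sites gather over the gene (median 17 bp past the start), while peaks further upstream than 150 bp are mostly weak, and a listed point near 0 is the W10G11.t1 row described in the text.

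Listed summits lay over the gene rather than upstream of it. Their position had a median of 17 bp past the start and quartiles of -4 and 43 bp. Of these summits, 67 of 101 (66.3%) lay inside the gene body, against 93 of 252 unlisted sites (36.9%). Unlisted sites had a median of -5.5 bp and a lower quartile of -191 bp. From 50 bp upstream to 80 bp downstream of the start, 91 of 221 sites were listed (41.2%, 34.9 to 47.8), with a median signal of 72.6. Upstream of that stretch, 5 of 102 were listed (4.90%, 2.11 to 11.0), with a median signal of 24.1, near the median of all ranked peaks. Downstream of it, 5 of 30 were listed (16.7%, 7.34 to 33.6). These limits were chosen after the positions were seen.

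The B box word was more frequent in listed peaks, whose summits also lay inside the gene more often. It was present in 96 of the 101 listed peaks (95.05%) and in 174 of the 252 unlisted ones (69.0%). Over the whole series it stood in 11.99% of ranked peaks of 300 bp and 28.3% of the listed ones, tRNA sites included. Among peaks of 300 bp in no tRNA window, it stood in 11.6% of all and in 125 of 862 listed ones (14.5%). Among peaks whose summit lay 301 to 500 bp upstream it stood in 16%; such a peak does not reach the gene. In the stretch from 50 bp upstream to 80 bp downstream it stood in 95.9%, listed and unlisted sites together. That is near the 94.9% of gene bodies, which were searched on the tRNA strand only. A link between the word and listing apart from summit position was not tested.

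The 10 listed sites away from the start differ from one another. The glycine genes T04D3.t1 and T04D3.t3 on I point away from each other with 744 bp between their starts, and a summit at -356 bp from T04D3.t1 lay between them, with 78.7 pooled, replicate values of 37.1 and 40.6 and no B box word in the peak. At the arginine gene F47G6.t1 on I, in an intron of the myosin gene spe-15, the listed summit was at -193 bp, with 110.3 pooled and 55.7 and 62.2. At the leucine gene C27A12.t1 on I the listed summit was 148 bp downstream, at 97.8 with 47.9 and 49.1. Both genes also had an unlisted ranked summit in the window, 18 and 101 bp from the middle of the gene. The outermost members were C12C8.t6 and K03H6.t1, both with summits at -499 bp and signals of 29.6 and 21.0, and, downstream, ZK262.t1 at 192 bp with 39.9 and Y113G7B.t1 at 180 bp with 28.8. Just outside the window, summits at -503, -507, 203 and 206 bp had signals of 24.3, 32.1, 19.4 and 13.3. None of these 8 was listed. The highest IDR, 0.761, was shared by 51 of the 353 sites, and by 43325 of all 103094 ranked peaks. The site named by rule was the asparagine gene K02E2.t1, at -497 bp, with 13.7 pooled and 6.33 and 16.6 in the replicate columns.

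Few listed sites differed by more than 2-fold between replicates. In the listed sites the first replicate value ranged from 32.6 to 77.1 and the second from 31.6 to 98.7. The second was higher in 55 of 101, and the median ratio of second to first was 1.06. A difference of more than 2-fold occurred in 3 of the 101 listed sites (2.97%) and in 82 of the 252 unlisted sites (32.5%). Since IDR is computed from both replicates, this is a description of the list. Over the 353 sites the replicate values had a Pearson r of 0.56 and a Spearman rho of 0.56, against 0.52 and 0.27 over all ranked peaks; the points share their libraries, and no test is attached.

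The extremes of the ratio were named by rule. M57.t1, an arginine gene on IV in an intron of unc-33, a gene needed for axon growth, had 77.1 and 36.7, a ratio of 0.48. Y54G2A.t2, an aspartate gene on IV, had 59.5 and 31.6 (0.53). At the other end were the glutamine gene T03E6.t1 on V with 35.7 and 79.5 (2.23) and Y65A5A.t4 (2.17). The 3 strongest unlisted sites were uneven too. The glutamate gene Y53C10A.t1 on I had a pooled signal of 100.5 with 23.6 and 72.6, the methionine gene Y22D7AL.t3 on III 91.1 with 27.4 and 64.9, and the arginine gene F14B4.t1 on I 88.0 with 59.3 and 28.3. At the threshold itself, an IDR of 0.01, the last listed sites were rte-2 (0.00943) and T28C12.t1 (0.00958), and the first unlisted ones Y65A5A.t2 (0.0103) and F33D11.t2 (0.0104), with replicate values between 35.1 and 40.4 in all 4.

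**Figure D2:**
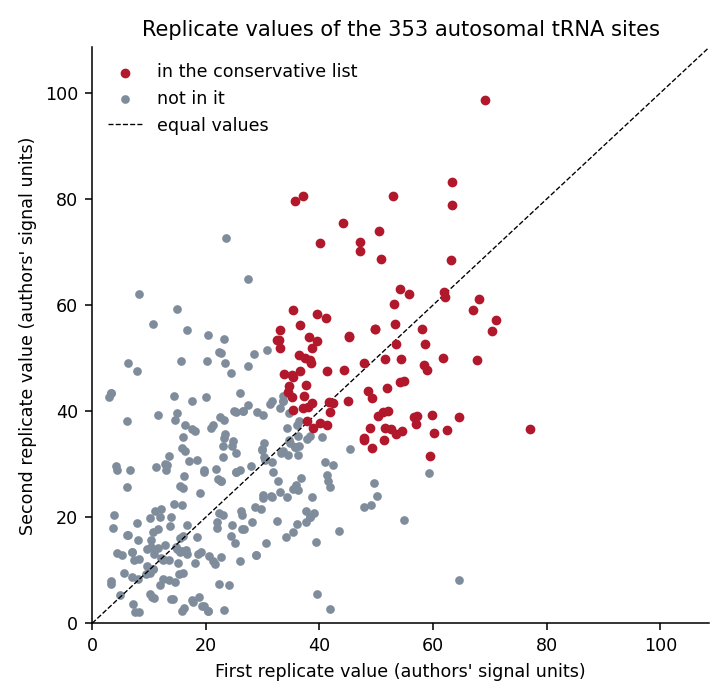
Each point is 1 autosomal tRNA site, with its first replicate value on the x axis and its second on the y axis (the authors' signal units), and the dashed line marks equal values. Listed sites fill the corner where the first value exceeds 32.6 and the second 31.6, and 22 unlisted sites reach both of these limits.

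Single replicates alone called few of the sites. The thresholded list of replicate 1 overlapped 25 of the 353 sites (7.08%, against 0.341% of all ranked peaks) and that of replicate 2 overlapped 27 (7.65%, against 0.416%); 11 sites were in both lists. The optimal list, made from pooled data, held 99 of the sites (28.0%, against 1.1% of all ranked peaks), 85 of them among the 101.

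By gene, 113 of the 336 autosomal tRNA genes had a listed summit in their window (33.6%, 28.8 to 38.8), against 2.21% of the autosomal genes of all other classes and 2.99% of protein-coding genes, each with the window at any annotated transcript start. Any ranked summit was found at 300 genes, in 215 of them a single one. A summit that lay in the windows of 2 tRNA genes was counted for both. When each summit went only to the nearest start, 101 genes had a listed one. The 12 genes lost were all clustered ones, with another tRNA start within 1 kb. The window fixes this, since starts further apart cannot share a summit.

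Listed sites were found at 19 of 21 amino acid types. Among types with at least 10 autosomal genes, aspartate was highest with 8 of 15 genes (53.3%, 30.1 to 75.2), followed by proline with 11 of 22 (7 of 22, 31.8%, by nearest start only), arginine with 8 of 17, lysine with 12 of 28 and threonine with 8 of 20. Glycine, the most numerous type, had 13 of 35 (37.1%, 23.2 to 53.7). At the low end were methionine with 3 of 12, glutamate with 4 of 18, glutamine with 2 of 12 (16.7%, 4.70 to 44.8) and tyrosine with 0 of 11, which allows a share of up to 27.3%. Most of these intervals overlap widely, and no order within them can be read from the counts.

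No tyrosine gene was listed, though 10 of the 11 had a ranked peak. ZK1067.t1 on II had 74.0 pooled with 33.6 and 42.0, at an IDR of 0.011. C47E8.t1 on V had 72.4 with 49.6 and 26.5, C18D4.t1 on V 63.9 with 30.2 and 31.4, and T22F7.t1 on III 62.9 with 30.3 and 34.0. The weakest, F56F4.t1 on I, had 21.1 with 9.74 and 10.8. The 10 tyrosine genes with a peak had a median best signal of 54.7, against 67.5 over all 300 genes with a peak. The selenocysteine gene K11H12.t1, which serves the few proteins that carry this residue, had 60.4 pooled with uneven replicate values of 13.1 and 29.8 and was not listed; its summit lay at -71 bp from the start.

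The strongest listed site of each type not yet named was as follows. Tryptophan was led by rtw-6 on IV, in an intron of daf-42, with 120.9; sup-5 on III, a tryptophan gene known for its amber suppressor alleles, had 73.3 with 31.4 and 41.4 and was not listed. Methionine was led by C14B9.t1 (116.9) and leucine by C14B9.t2 (116.6), 2950 bp apart on III. Valine was led by F22G12.t1 (114.8), asparagine by Y116F11A.t1 (112.1), serine by Y51H7BR.t1 (105.1), glutamate by rte-4 (96.0) and cysteine by T28C12.t1 (80.5).

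**Figure D3:**
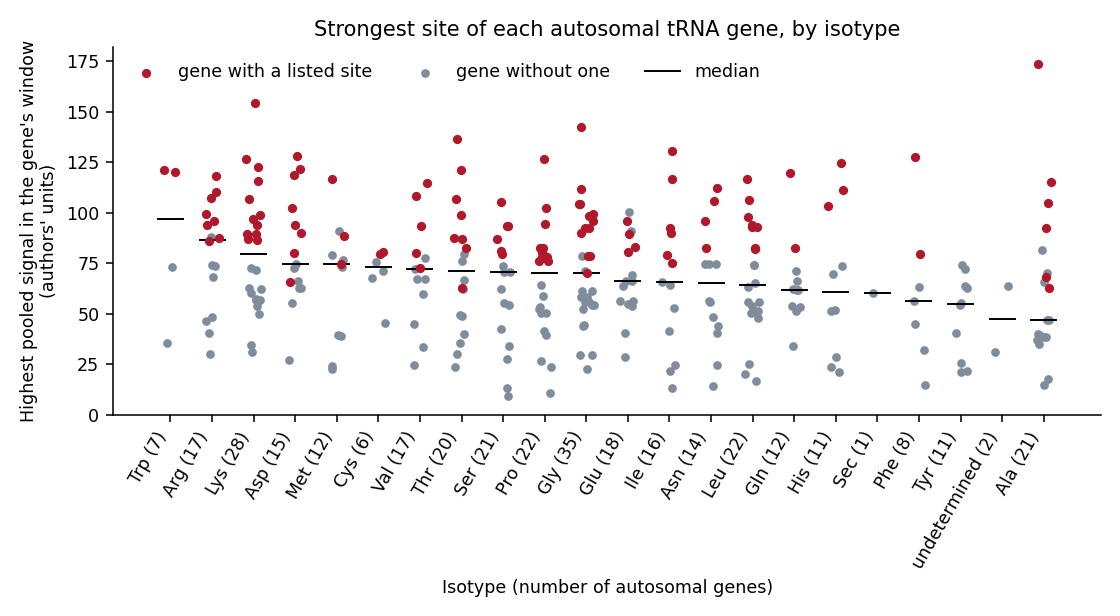
Each point is an autosomal tRNA gene with at least 1 ranked peak in its window, at the highest pooled signal there; types are ordered by their median (black bar), with the number of genes in brackets. Genes with a listed site occur in all types but tyrosine, selenocysteine and the 2 genes of undetermined type; type medians run from 47.2 for alanine to 96.7 for tryptophan, and alanine genes from 14.9 to 173.5.

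Genes of identical sequence held different signals. The 336 genes had 137 different bodies, and 23 bodies were shared by at least 5 autosomal genes, 189 genes in all. In 21 of these 23 families, also by nearest start only, some genes had a listed site and others with a peak had none. The highest signal exceeded the lowest by a median of 3.09-fold (range 1.34 to 11.7). Each gene was taken at its strongest summit anywhere in the window. Some of the lowest values came from summits away from the gene, as at F57G8.t2 (-231 bp) and Y119D3B.t1 (-274 bp). No fold is given here for summits near the start alone. The largest family, glycine with 29 copies in the genome and 18 on autosomes, had 6 listed genes (4 by nearest start only) and signals from 29.9 to 104.3. The lysine family of K08E7.t1, 15 on autosomes, had 7 listed genes and ran from 50.04 to 154.1. The proline family of T23F1.t2 ran from 10.8 to 126.4 and had 7 of 11 listed, 4 of them only through a summit nearer another tRNA gene. The peak at T23F1.t2, the highest of this family, also overlaps the lysine gene T23F1.t1. In R11G10.t1, the lowest member of the family, the replicate values were 15.8 and 2.36. R11G10.t1 lies in an intron of avr-15, a glutamate-gated chloride channel gene. A phenylalanine family of 5 and an alanine family of 5 had no listed gene.

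How reads with several equally good matches were handled is not stated. Of the 50-base words in a listed peak a median of 86.5% occur nowhere else in the genome, against 90.0% in unlisted peaks, many of which lie beside the gene. Genes with a body found in no other gene were listed in 25 of 86 cases (29.1%, 20.5 to 39.4), and those with more than 15 copies in 36 of 85 (42.4%, 32.4 to 53.0). By nearest start only, it was 23 of 86 (26.7%, 18.5 to 36.95) and 29 of 85 (34.1%, 24.9 to 44.7). Both pairs of intervals overlap. From 50 bp upstream to 80 bp downstream, the signal had a Spearman rho of 0.01 with the share of unique words and of 0.27 with GC content over 221 sites. Over all 353 sites, which include those beside the gene, the values were -0.44 and 0.42; the sites share their libraries, and no test is attached.

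**Figure D4:**
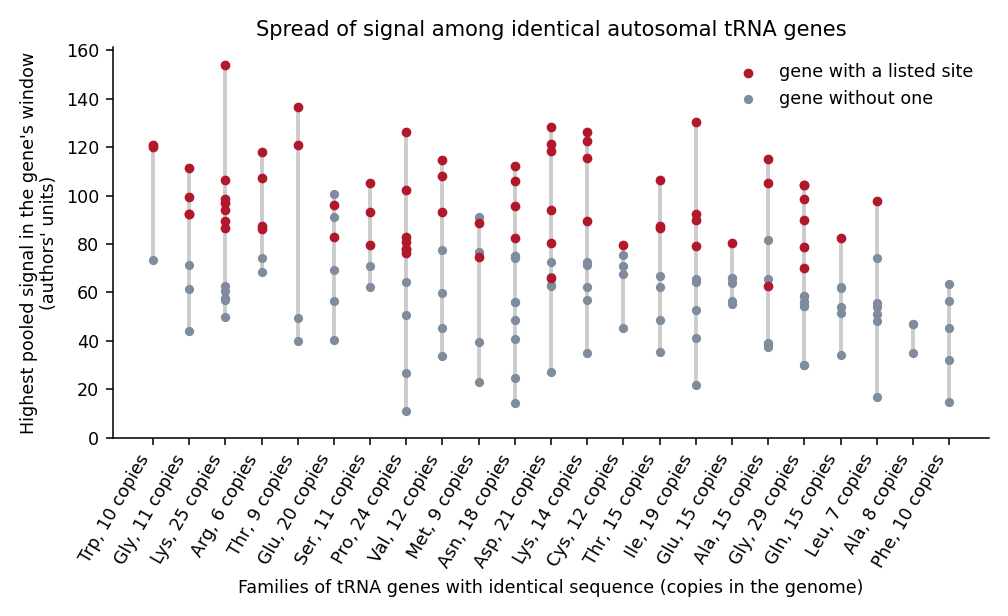
Each column is a family of tRNA genes of identical sequence with at least 5 autosomal members, ordered by median; points are genes with a peak at their highest pooled signal and grey lines join the lowest to the highest. Listed and unlisted genes share a column in 21 of 23 families, with the widest ratio, 11.7-fold, in the proline family of 24 copies. The highest point of that family is a peak that also overlaps a lysine tRNA gene. Some of the low points come from summits away from the gene body.

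Genes in introns were listed about as often as others. Introns of protein-coding genes held 192 of the 336 genes: 38 of 115 with the host on the same strand were listed (33.0%, 25.1 to 42.1), 27 of 77 on the opposite strand (35.1%, 25.4 to 46.2) and 48 of 144 without a host (33.3%, 26.2 to 41.4). Median signals of the listed sites were 93.5, 90.0 and 95.9 in these 3 groups. In all 157 genes served as hosts, 59 of them with a listed tRNA gene inside. In 6 hosts a single listed summit lay in the windows of 2 tRNA genes, so that both were counted: F49D11.10, clpp-1 (a mitochondrial protease), pygl-1 (glycogen phosphorylase), rsa-2 (a centrosome protein), gcy-4 (a receptor guanylyl cyclase) and unc-104 (a kinesin of axonal transport). The hosts pash-1, spe-9 and pxn-1 hold 3 tRNA genes each and had none listed. In brd-1, a homologue of the human BARD1 gene, K04C2.t3 (lysine) was listed at 115.5 and the other two were not.

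The share of clustered genes listed depended on how shared summits were counted. Of 99 genes with another tRNA start within 1 kb, 39 were listed (39.4%, 30.3 to 49.2), against 74 of 237 others (31.2%, 25.7 to 37.4). With each summit given to its nearest start, the direction turned: 27 of 99 clustered genes were listed (27.3%, 19.5 to 36.8), against the same 74 of 237 others. Only clustered genes can lose a listed summit by this rule, so the 74 of 237 could not change. In all, 35 sites lay in the windows of 2 tRNA genes, 14 of them listed, and none in more. Of these 35, 23 lay at divergent pairs (8 listed), 10 at pairs on the same strand (5 listed) and 2 at convergent pairs (1 listed). The strongest of the 35 was T23F1.t2 with the lysine gene T23F1.t1, a convergent pair whose starts are 210 bp apart. On II, 4 listed summits lay at 3 pairs of a threonine and a lysine gene on the same strand, at W10G11 (106.6 and 2.31), W09G10 (98.8) and C16C8 (86.8), with starts 155, 165 and 176 bp apart.

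Some rows of the ranked list rest on the same replicate peaks. There were 24 sites, in 12 pairs with summits 199 to 235 bp apart, that shared both replicate values with a neighbouring site. The listed rows of W10G11.t1 and W10G11.t2 are such a pair, with replicate values of 49.9 and 55.5 in both but pooled signals of 2.31 and 106.6. Over the whole series, 11989 of 103094 ranked peaks shared their replicate values with another. In all, 17 of the 353 sites, 1 of them listed, had a pooled signal under both replicate values, as had 8659 of the 103094 ranked peaks. Without these 17 the median signal was 59.3 in place of 56.2, and 100 of 336 sites were listed.

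Where a listed site also lay in the start window of a protein-coding gene, the summit was mostly on the tRNA gene. This concerned 21 of the 101 listed sites (20.8%) and 21 protein-coding genes. Of the 252 unlisted sites, 52 (20.6%) also lay in such a window. In 18 of the 21 listed sites the summit was inside the tRNA gene body. Sites were drawn around tRNA starts, and 67 of all 101 listed summits were inside the gene body. Of the 21 summits, 19 were upstream of the protein-coding start, at a median of -255 bp. F44A2.t1 was the closest to a start among the upstream ones, at -76 bp from kvs-3, a potassium channel gene on the same strand. T14B4.t1 (leucine) was at -109 bp from T14B4.8 and K07A1.t1 (serine) at -132 bp from aqp-9, an aquaporin gene. The summit counted at srh-269, a chemoreceptor gene, was 57 bp into the glutamine gene T03E6.t1, and the one at clec-126, a C-type lectin gene, 67 bp into the lysine gene W09G10.t2. Others lay at 105 bp from twk-13, a potassium channel gene, and at -414 bp from ceh-43, a homeobox gene.

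Chromosome II had the highest share of listed genes. It was 33 of 57 on II (57.9%, 45.0 to 69.8), against 20 of 66 on I (30.3%, 20.6 to 42.2), 20 of 64 on III (31.2%, 21.2 to 43.4), 22 of 71 on IV (31.0%, 21.4 to 42.5) and 18 of 78 on V (23.1%, 15.1 to 33.6). By this count the interval for II does not overlap those of the other 4, but it rests in part on summits counted for 2 genes. By nearest start, 27 of 57 genes on II were listed (47.4%, 35.0 to 60.1), which overlaps the intervals of I, III and IV but not that of V (16 of 78, 20.5%, 13.0 to 30.8). By site, it was 27 of 59 on II (45.8%, 33.7 to 58.3), again overlapping I, III and IV but not V (16 of 93, 17.2%, 10.9 to 26.1). The listed share of all ranked peaks was 1.12% on II, between 0.827% on V and 1.27% on I. Within families of identical genes with members on II and elsewhere, 14 in number, 19 of 34 genes on II were listed (55.9%), against 23 of 78 elsewhere (29.5%); by nearest start it was 14 of 34 (41.2%) against 20 of 78 (25.6%). The median signal was higher on II in 8 of the 14. In the alanine family of B0491.t1, counted among the rest, no gene elsewhere had a peak, so its medians could not be compared. The signals differed less than the counts did: for summits from 50 bp upstream to 80 bp downstream the median was 75.7 on II and 71.3 on the other 4 autosomes together, with replicate medians of 38.0 and 39.8 on II and 34.1 and 36.9 on the others. The 33 genes were spread along the chromosome, 12 of 20 in the left, 11 of 18 in the middle and 10 of 19 in the right part when it is cut in 3 equal parts. In the lists of the single replicates, 6 and 2 of the 40 sites on II in that stretch were called, against 16 and 23 of 181 elsewhere.

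**Figure D5:**
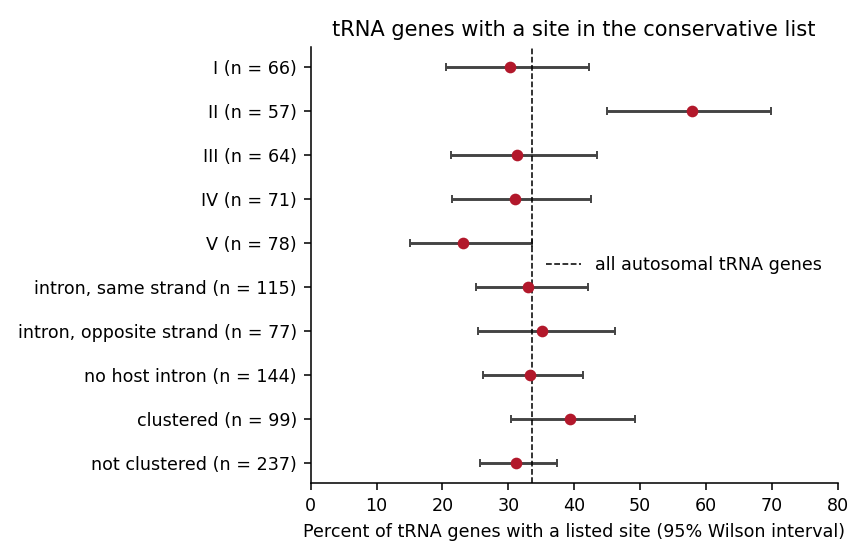
Points give the percent of autosomal tRNA genes with a listed site, by chromosome, host intron and presence of another tRNA start within 1 kb, with 95% Wilson intervals (counting error only) and the share over all 336 genes, 33.6%, as a dashed line. A summit in the windows of 2 genes counts for both; by this count chromosome II lies at 57.9% (47.4% by nearest start), while the host classes lie between 33.0% and 35.1%.

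For 36 genes there was no ranked peak in the window, and most of these lie in stretches where the ranked list has no rows. Neighbouring ranked summits were a median of 614 bp apart, but 27 of the 36 genes were more than 2 kb from any (median 7414 bp, up to 36117 bp): 17 on IV, 6 on I, 3 on V and 1 on III. Stretches of over 4 kb without a summit made up 34.6% of IV, 22.9% of V, 18.9% of I, 16.3% of II and 12.7% of III. Of the 27 genes, 18 were also over 2 kb from any peak in the ranked list of replicate 1 and 21 in that of replicate 2. The tryptophan genes sup-24 and sup-29, named for suppressor alleles, and the 3 glycine genes inside pash-1 are among the 27. A ranked peak of at least 1 replicate's own list lay within 2 kb of 14 of the 27, and of both lists at 1, Y4C6B.t2, at 27 bp in replicate 1 and 24 bp in replicate 2. At sup-24 and sup-29 a peak of replicate 1 lay 75 and 143 bp from the middle of the gene. Over the 309 genes within 2 kb of a summit the listed share was 36.6% on all autosomes, 57.9% on II and 40.7% on IV.

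Sites on autosomes and on X had similar shares and positions. By site, 101 of 353 were listed on autosomes (28.6%) and 75 of 249 on X (30.1%, 24.8 to 36.1), and by gene 33.6% and 31.9%. Listed summits had medians of 17 and 18 bp past the start. The median signal was 56.2 on autosomes and 51.9 on X over all sites, and 94.1 and 102.7 over listed ones; the strongest was 173.5 on autosomes and 222.5 on X. Host introns differed: 59 of 101 listed autosomal sites (58.4%) lay in one, against 26 of 75 on X (34.7%); of all tRNA genes, 192 of 336 on autosomes and 95 of 276 on X lie in one. On X, 10 of 50 genes with a host on the same strand were listed (20%, 11.2 to 33.0) and 19 of 45 on the opposite strand (42.2%, 29.0 to 56.7); the 2 intervals overlap.

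Among genes of the polymerase III machinery, 2 had a listed summit. Of 20 genes named in the list, 18 were found in the annotation and 2 of these had a listed summit in a start window (11.1%, against 2.99% of all protein-coding genes): snpc-3.4, of the snRNA activating complex, with 139.1, and rpb-8, a subunit shared by the 3 nuclear polymerases, with 111.7. The share rests on these 2 genes. The largest subunits rpc-1 and rpc-2, the TFIIIB factor brf-1, tbp-1 and the repressor mafr-1 had none. Nor had any other gene found, among them rpb-5, rpb-6, rpb-10, rpb-12, snpc-4, tftc-1, tftc-3 and tftc-5.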

How the data were processed

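ZTF-28 ChIP-seq in 2 biological replicates was read from peak lists on assembly ce11, per the labels. Neither aligner nor peak caller is named in the labels or files read here. The authors deposited ranked and thresholded lists per replicate, for both replicates together (conservative) and for pooled data (optimal). The signal value of each peak is as the authors deposited it, on an unstated scale: a pooled value, and in the conservative ranked list 1 value from each replicate. The list does not name its replicate columns. At all 101 listed sites the first recurs in the ranked list of replicate 1 and the second in that of replicate 2 (equal to 5 decimals, within 1 kb). Over all 353 sites the first recurs at 301 and the second at 308. Over all 103094 ranked peaks the counts are 60331 and 58814. The authors also deposited the −log10 of the global IDR and a score that is the global IDR in scaled form.

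Each peak stood for its summit (column 2 plus column 10, counted from 1). tRNA genes and hosts came from Ensembl release 115 and amino acid types from RefSeq, where all 336 autosomal tRNA genes matched by WormBase identifier. A host is a protein-coding gene with the tRNA gene inside an intron of any transcript. A cluster has another tRNA start within 1 kb. Copies were counted as identical gene bodies, and unique words as 50-base words with 1 place in the genome. The planned search for the A box was left out, since no fixed word covers it. The upper limit set for a count of 0 is 3 counts.

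Sites and lists were chosen with earlier results of these data known. The text names the 12 strongest listed sites; the strongest of each type, autosome and host class; the 3 strongest unlisted; the one in most tRNA windows; the 2 most uneven between replicates in each direction; the lowest and highest IDR; and the 2 at each window edge. Other genes named were chosen after their values were seen. No test was possible with 1 group and no control library, so counts stand beside those of all ranked peaks, and precision is limited by an unknown depth. Window assignment, copy counts and host calls were tested on simulated data, where 300 of 300 summits, 20 of 20 planted sequences and 4 of 4 hosts came out right. Work was done in Python 3.11.15 with NumPy 2.4.6, pandas 2.3.3, statsmodels 0.14.6 and matplotlib 3.10.9.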

Additional observations from a re-analysis of the deposited data

How the results depend on the processing

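Of 65 values recomputed under alternatives for 19 results, 43 stayed within the replicate spread, interval or 1.5-fold range set for them. The number of listed sites ran from 80 to 103 over the ways of drawing a site. With a window of 250 bp upstream and 100 bp downstream, 97 sites were listed, 34.3% of those in the window; with 1000 bp upstream, 103 of 555 (18.6%); with summits within 100 bp of the gene body, 99 (37.4%). An IDR of at most 0.001 left 17 sites (4.82%). The list of either replicate alone gave 25 to 27 (7.08% to 7.65%). Signal medians from either replicate column were 28.6 to 32.1 for all sites and 48.8 to 49.0 for listed ones. In the optimal ranked list the listed median was 94.4. Leaving out the 17 sites with a pooled signal under both replicate values, an alternative chosen after seeing the data, gave a median of 59.3. Only same-strand hosts counted, 36.8% of all and 35.6% of listed sites had a host intron. Clusters defined by 500 bp held 49 sites, 14 of them listed, and by 5 kb 141. The cause of these shifts was not tested beyond the construction of each alternative. RefSeq genes and a summit not shifted by 1 bp (the latter chosen after seeing the data) gave the same 353 and 101. So did the midpoint in place of the summit, but in these 300 bp peaks the summit is the midpoint. That alternative could not differ and is no check, though its values are among the 43. RefSeq holds all 336 genes under the same identifiers, so the RefSeq alternative had little room to differ. A global IDR of at most 0.01, the threshold of the list, again gave 101 and is no separate check. The values of these 2 alternatives are among the 43 too. Giving each summit to its nearest start, tried by chromosome, type and cluster after seeing the data, left 7 proline genes listed in place of 11 and turned the direction for clustered genes. Only clustered genes can change under this rule. No paired analysis was possible because there is a single group. Depth is unknown, and a site outside the list is not shown to be unbound.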
